A study of Mus musculus with 8 samples.

Results

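The genes of the motor endplate examined here were the 5 muscle acetylcholine receptor subunits Chrna1, Chrnb1, Chrnd, Chrne and Chrng, the agrin receptor and signalling genes Lrp4, Musk and Dok7, the receptor scaffold Rapsn and the acetylcholinesterase anchor Colq. They were taken by name, 10 of the 21207 gene symbols that all 8 count matrices of a single-nucleus RNA sequencing study of mouse muscle hold. All 10 were present in every matrix. They gave 37365 UMIs (unique molecular identifiers, which let each captured RNA molecule be counted once) over 64803 retained nuclei. For each gene the question was how far it was restricted to the nuclei under the synapse and how far it was spread over the other nuclei of the fibre.

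A muscle fibre holds many nuclei in a shared cytoplasm, and the few that lie under the nerve terminal are known to transcribe a set of synaptic genes. Agrin from the nerve binds LRP4, LRP4 activates the kinase MuSK with the help of the adaptor Dok7, and rapsyn then holds the receptors in clusters. The adult receptor contains the epsilon subunit (Chrne), and the fetal receptor contains the gamma subunit (Chrng) in its place. Denervated muscle is known to express the gamma subunit again and to make receptor transcripts away from the synapse.

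Nuclei came from gastrocnemius, a calf muscle, of C57BL/6 mice labelled as wild type, in 4 groups of 2 libraries each. Young mice were 3 months old and Old mice 20 months old. Running mice were trained for 2 months from the age of 11 months on a treadmill at 9 m/min in sessions of 30 min, and Sedentary mice of the same age were left untrained for the same time. In each group replicate 1 was made with 10x Genomics droplets (the 10x set) and replicate 2 with another droplet system (the second set). How many animals each library holds, and their sex, is not given in the sources used here, so the spread between libraries may be technical. UMI totals were from 23390969 to 44454427 per library in the 10x set and from 4839878 to 9278034 in the second set.

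Synaptic nuclei were found by clustering the nuclei with the 10 genes left out and were recognised from 12 other marker genes, among them Ano4, Etv5, Col4a3 and Ache. These neuromuscular junction-like nuclei numbered 38 in Old, 26 in Young and 39 in Running replicate 1, 73 in Sedentary replicate 1, and 15, 41, 58 and 58 in replicate 2 of those groups. All 12 markers were detected in them in each of the 8 libraries, and their summed level was from 6453 to 18946 UMIs per 1000000 UMIs of the same nuclei (CPM), against 95.9 to 450 CPM in the other myonuclei. The class was named by these same 12 markers, so their higher level there is no independent check of the name. In Old replicate 2 detection rests on 1 UMI for Ache and on 2 each for Etv4 and Ufsp1. Old replicate 2 stood apart from the other libraries. Of its nuclei 65.3% stayed in clusters with no name, against 1.23% to 21.6% in the other 7, and its 15 synaptic nuclei gave 33 UMIs of the 10 genes, so the UMI shares are given with and without it. Pairs of 10x libraries shared from 30 to 46 cell barcodes, at most 0.39% of the smaller library. In nuclei like fibro-adipogenic progenitors, the fibroblast-like cells of muscle, the second set held 12606 CPM of myosin heavy chains against 1295 CPM in the 10x set, and the source of these UMIs was not tested.

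The 10 genes spanned the range from restriction to spread. By the median of the 8 libraries, 47.1% of Colq, 41.8% of Chrne, 39.4% of Chrnd and 21.4% of Chrna1 UMIs lay in neuromuscular junction-like nuclei. For Musk the median was 11.03%, for Lrp4 3.07% and for Chrnb1 2.83%. For Dok7 it was 0.67% and for Rapsn 0.48%, both within the range of 0.23% to 1.68% that these nuclei took of the UMIs of all genes, and for Chrng it was 0. Without Old replicate 2 the medians were 53.3% for Colq, 47.7% for Chrne, 40.0% for Chrnd, 21.5% for Chrna1, 12.97% for Musk, 3.504% for Lrp4, 3.10% for Chrnb1, 0.58% for Dok7, 0.40% for Rapsn and 0 for Chrng. Neighbours in this order were not separated from each other, since the libraries ranged from 6.79% to 71.9% for Colq, from 0 to 65.6% for Chrne and from 0 to 87.5% for Chrnd. These shares compare clusters of the same nuclei and carry no test.

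**Figure D1:**
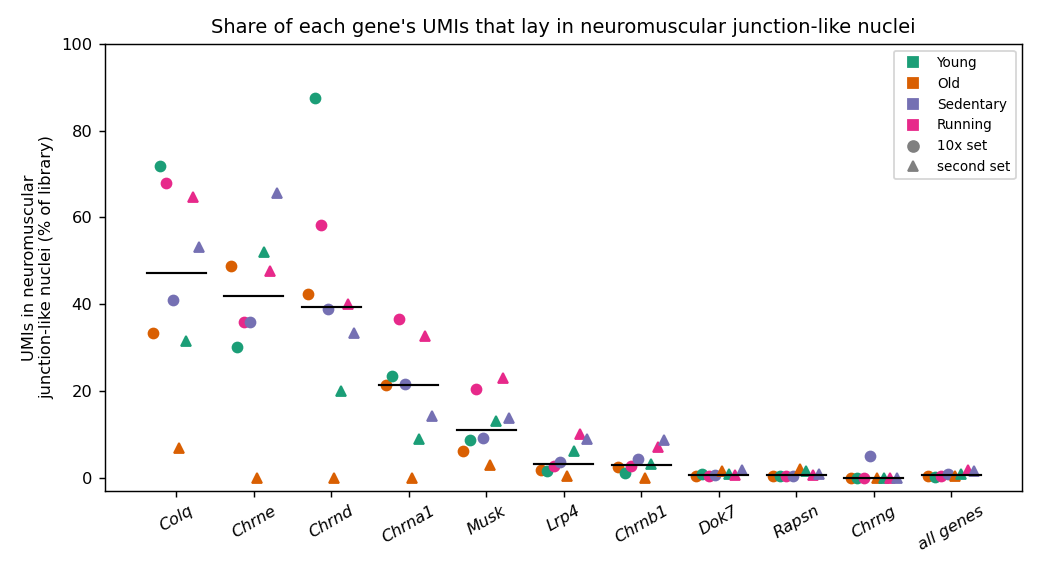
Percent of each gene's UMIs in a library that lay in neuromuscular junction-like nuclei (y axis) for the 10 genes and for all genes together (x axis), with 1 point a library, colour for the group, circles for the 10x set, triangles for the second set and a line at the median of the 8 libraries. Colq, Chrne and Chrnd have medians of 47.1%, 41.8% and 39.4%, while Dok7 and Rapsn, at 0.67% and 0.48%, lie within the 0.23% to 1.68% of all genes, and the triangles at 0 for Chrne, Chrnd and Chrna1 are Old replicate 2.

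Chrne encodes the epsilon subunit (chromosome 11, 70614883 to 70619216 on the minus strand of GRCm38). In the 10x set its level in neuromuscular junction-like nuclei was 774 CPM in Old, 1038 CPM in Young, 1213 CPM in Running and 222 CPM in Sedentary. In the second set it was 334 CPM in Young, 602 CPM in Running and 598 CPM in Sedentary, and no UMI was found in the 15 nuclei of Old, which allows a share of nuclei with a UMI of up to 20%. In the other myonuclei the level was from 2.60 to 11.7 CPM over the 8 libraries. In the 7 libraries other than Old replicate 2 every synaptic level was above every level of the other myonuclei, by from 51.5 to 181 times within a library.

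Of the 176 synaptic nuclei of the 10x set 67.6% held a Chrne UMI (95% Wilson interval 60.4 to 74.1, median depth 2658.5 UMIs). The share was 0.45% in nuclei like fibro-adipogenic progenitors (0.33 to 0.62, median depth 2063 UMIs), a class that should lack the gene. In type IIb-like nuclei, which carry the fastest myosin, it was 2.06% (1.86 to 2.28, median depth 3332 UMIs). With every nucleus thinned to 500 UMIs, the median share over libraries went from 53.4% to 26.1% in synaptic nuclei and from 0.99% to 0.22% in the other myonuclei. Intervals here and below cover counting error only.

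Sedentary replicate 1 was low for Chrne within the 10x set. Its synaptic levels of Colq, Chrna1 and Chrnd, at 768, 114 and 39.8 CPM, were also the lowest of that set. Those of Musk and Chrnb1 lay within the range of the other 10x libraries, and that of Lrp4 was the highest. This library had a Chrne UMI in 34.2% of its 73 synaptic nuclei, against 84.2% to 96.2% in the other 3 libraries. Its synaptic nuclei had a median of 2020 UMIs, against 3094.5 to 3828 in those libraries, and a marker sum of 13685 CPM, within their range of 12840 to 18946 CPM. With every nucleus thinned to 500 UMIs, the share with a Chrne UMI was 10.96% in this library. It was from 26.3% to 61.5% in the other 3 libraries, so this library stayed the lowest at that depth. The cause of the low Chrne value was not tested.

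Outside the synapse the level of Chrne by fibre type differed between libraries. In type IIb-like nuclei of the 10x set it was 4.49 CPM in Old, 7.41 CPM in Young, 11.96 CPM in Running and 3.45 CPM in Sedentary, and in type IIa/IIx-like nuclei 3.15, 5.89, 5.19 and 3.54 CPM. The type IIb-like level was thus the higher in 3 of these 4 libraries, and in the second set it was the higher in Running (15.1 against 5.47 CPM) and Sedentary (4.88 against 2.98 CPM) and not in Old or Young. Slow-like nuclei of the 10x set, 388 of them from Sedentary and 147 from Old, held 4 Chrne UMIs. Summed over the 10x set, type IIb-like nuclei, most of them from Young and Running, held 7.83 CPM, type IIa/IIx-like nuclei 4.41 CPM and slow-like nuclei 2.38 CPM, and nuclei like fibro-adipogenic progenitors held 2.07 CPM (exact Poisson interval 1.52 to 2.77). In the second set the levels were 10.3, 4.71, 5.37 and 2.12 CPM in the same order. The slow-like level of the 10x set lay within the interval of the progenitor-like class. The type IIb-like level lay above that interval in the 10x set, while in the second set the progenitor-like level rests on 1 UMI and its interval (0.05 to 11.8) includes the type IIb-like level. An antisense gene model (4930544D05Rik) overlaps 1043 bases of Chrne and was not counted in the matrices, and whether the counting used strand is not given.

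Promoter sequences were read from RefSeq (GRCm38.p6), whose table holds 7 sequences for 6 of the 10 genes, Chrna1, Chrnb1, Chrne, Chrng, Musk and Dok7. The 250 bases before the RefSeq start were searched on both strands for the N-box, with the letters CCGGAA, which ETS factors of synaptic nuclei are known to bind, and for the E-box, with the letters CANNTG, which myogenic factors bind. No N-box overlapped an E-box in these sequences. The N-box was found for 1 of the 6 genes, Chrne, 76 bases before the start, and in 12.03% of the 32851 promoters of the table. An E-box was found for all 6 genes and in 66.2% of all promoters. Chrna1, Chrnb1, Chrng and Musk each had 3, and 12.2% of all promoters had 3 or more. The epsilon and gamma promoters are printed because these subunits replace each other, and those of Chrna1, Musk and Chrnb1 because their genes run from restricted to spread. Capitals mark the N-box and the E-boxes, and each sequence reads 5′ to 3′ on the strand of its gene and ends at the base before the start. The Chrng window lies inside the span that GENCODE gives the gene, whose annotated start is further upstream.
Chrne, chr11:70619195-70619444, minus strand: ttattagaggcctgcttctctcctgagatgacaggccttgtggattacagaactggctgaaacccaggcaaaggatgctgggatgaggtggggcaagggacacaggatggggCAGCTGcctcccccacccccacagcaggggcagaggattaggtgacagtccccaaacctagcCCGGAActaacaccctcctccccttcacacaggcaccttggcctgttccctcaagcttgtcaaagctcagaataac
Chrng, chr1:87205561-87205810, plus strand: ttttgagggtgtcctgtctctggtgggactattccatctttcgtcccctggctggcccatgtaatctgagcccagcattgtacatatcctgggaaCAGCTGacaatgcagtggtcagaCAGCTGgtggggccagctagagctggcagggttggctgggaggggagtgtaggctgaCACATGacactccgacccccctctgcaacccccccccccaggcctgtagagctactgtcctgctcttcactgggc
Chrna1, chr2:73580339-73580588, minus strand: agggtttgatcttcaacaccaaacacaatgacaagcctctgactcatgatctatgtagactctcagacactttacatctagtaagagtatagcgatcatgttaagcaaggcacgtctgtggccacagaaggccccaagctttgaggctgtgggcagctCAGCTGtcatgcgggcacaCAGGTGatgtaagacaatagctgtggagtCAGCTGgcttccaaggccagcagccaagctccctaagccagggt
Musk, chr4:58285712-58285961, plus strand: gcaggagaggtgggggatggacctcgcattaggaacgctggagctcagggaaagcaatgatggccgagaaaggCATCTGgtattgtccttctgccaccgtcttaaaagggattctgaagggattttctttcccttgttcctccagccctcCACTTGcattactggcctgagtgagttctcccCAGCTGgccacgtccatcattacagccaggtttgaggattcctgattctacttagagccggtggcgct
Chrnb1, chr11:69795938-69796187, minus strand: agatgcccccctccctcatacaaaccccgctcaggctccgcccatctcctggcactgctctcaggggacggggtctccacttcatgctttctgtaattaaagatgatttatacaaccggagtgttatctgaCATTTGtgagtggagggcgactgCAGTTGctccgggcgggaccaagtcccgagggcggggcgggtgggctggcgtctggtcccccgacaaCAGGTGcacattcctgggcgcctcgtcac

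Chrne has a single E-box, 138 bases before the start, and its N-box is the capital stretch nearer the end of the first sequence. The motif matches are letters in a window of 250 bases, and no binding was measured.

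Chrna1 encodes the alpha subunit, which binds acetylcholine (chromosome 2, 73563215 to 73580338, minus strand). Its synaptic level was 242 CPM in Old, 328 CPM in Young, 142 CPM in Running and 114 CPM in Sedentary of the 10x set, and 0, 61.8, 130 and 74.7 CPM in the second set. The other myonuclei held from 0.51 to 4.84 CPM in the 10x set and from 4.74 to 8.76 CPM in the second set. Chrna1 was higher in synaptic nuclei in 7 of 8 libraries, and Old replicate 2 had no UMI of it there. Slow-like nuclei stood out among the fibre types, with 22.0 CPM in the 10x set and 15.5 CPM in the second set, against 1.19 and 3.76 CPM in type IIb-like nuclei. In the 6 libraries with at least 20 slow-like nuclei the slow-like level was from 11.3 to 35.8 CPM and the type IIb-like level from 0 to 5.25 CPM, with no overlap, though Old replicate 2 had 19 type IIb-like nuclei.

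Chrnd encodes the delta subunit (chromosome 1, 87190607 to 87200070, plus strand) and gave 104 UMIs in all. Synaptic nuclei held 11 of them in Old and 7 in each of Young, Running and Sedentary of the 10x set, and 0, 2, 6 and 2 in the second set. The other myonuclei, 26752 of the 10x and 12976 of the second set, held 11, 0, 2 and 10 and then 5, 6, 8 and 4 UMIs. In CPM the synaptic level was above that of the other myonuclei in 7 of 8 libraries. Young replicate 1 had no Chrnd UMI in its other myonuclei, against 7 in its 26 synaptic nuclei.

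Chrnb1 encodes the beta subunit, which the adult and the fetal receptor share (chromosome 11, 69784036 to 69795943, minus strand), and it was spread. Its synaptic level was 194 CPM in Old, 120 CPM in Young, 246 CPM in Running and 171 CPM in Sedentary of the 10x set, and 0, 49.4, 122 and 194 CPM in the second set. The other myonuclei held from 15.7 to 39.5 CPM over the 8 libraries. Synaptic nuclei were thus higher in 7 of 8 libraries, by a median of 4.72 times, yet 3804 of the 5245 Chrnb1 UMIs lay in the other myonuclei.

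The agrin receptor complex was divided in the same way. Musk, the receptor kinase (chromosome 4, 58285960 to 58374303, plus strand), had a synaptic level of 1095 CPM in Old, 1595 CPM in Young, 1546 CPM in Running and 1353 CPM in Sedentary of the 10x set, and of 1075, 1236, 1384 and 1569 CPM in the second set. Its level in the other myonuclei was 98.2, 44.1, 21.9 and 118 CPM and then 172, 81.0, 80.8 and 141 CPM in the same order. The synaptic level was higher in 8 of 8 libraries, by from 6.26 to 70.7 times. A Musk UMI was found in 83.5% of synaptic nuclei of the 10x set and in 5.39% of nuclei like fibro-adipogenic progenitors, and in 74.4% and 8.85% of those classes in the second set. Exons make up 4.27% of the 88.34 kb of the gene, and whether intronic reads were counted is not given.

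Lrp4, the agrin receptor (chromosome 2, 91457511 to 91513779, plus strand), was higher in synaptic nuclei in 7 of 8 libraries. Its synaptic level was 212 CPM in Old, 295 CPM in Young, 246 CPM in Running and 307 CPM in Sedentary of the 10x set, and 56.6, 519, 415 and 508 CPM in the second set. The other myonuclei held from 33.7 to 79.6 CPM, and Old replicate 2, with 1 UMI in its synaptic nuclei, was the library in which they were higher. The median ratio was 6.51.

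Dok7, the adaptor that activates MuSK (chromosome 5, 35056766 to 35087839, plus strand), was not concentrated in synaptic nuclei. In the 10x set its synaptic level was 18.1 CPM in Old, 54.6 CPM in Young, 24.6 CPM in Running and 17.1 CPM in Sedentary, against 25.1, 21.9, 30.6 and 28.9 CPM in the other myonuclei. In the second set it was 56.6, 12.4, 8.14 and 29.9 CPM against 10.8, 13.7, 24.4 and 26.3 CPM. Synaptic nuclei were higher in 3 of 8 libraries, the values of both kinds of nuclei overlapped, and the 8 synaptic values rest on 20 UMIs in all.

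Rapsn, the scaffold under the receptor (chromosome 2, 91035620 to 91045729, plus strand), behaved alike in its counts. Its synaptic level was from 8.14 to 56.6 CPM and rests on 17 UMIs, and the other myonuclei held from 11.5 to 33.0 CPM on 3252 UMIs. Synaptic nuclei were higher in 2 of 8 libraries, Old and Young replicate 2. An antisense gene model that the matrices also count (Gm13778) overlaps 1638 bases of Rapsn, so its counts are uncertain if strand was not used. By nuclei counted the result was alike, with a Dok7 UMI in 7.95% and a Rapsn UMI in 6.82% of synaptic nuclei of the 10x set, against 8.33% and 10.6% of type IIb-like nuclei.

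Colq encodes the collagen tail that anchors acetylcholinesterase in the synaptic cleft (chromosome 14, 31523082 to 31591343, minus strand). Its synaptic level was 1016 CPM in Old, 1311 CPM in Young, 1866 CPM in Running and 768 CPM in Sedentary of the 10x set, and 623, 1273, 1123 and 1465 CPM in the second set. The other myonuclei held from 0.82 to 9.38 CPM in the 10x set and from 10.2 to 25.5 CPM in the second set, so Colq was higher in synaptic nuclei in 8 of 8 libraries, with no overlap. Slow-like nuclei again stood out among the fibre types, with 29.7 CPM in the 10x set and 59.1 CPM in the second set, against 1.76 and 7.81 CPM in type IIb-like nuclei. A gene model (Gm49387) on the same strand overlaps 38439 bases of Colq and was not counted in the matrices, and how reads of that stretch were assigned is not given.

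**Figure D2:**
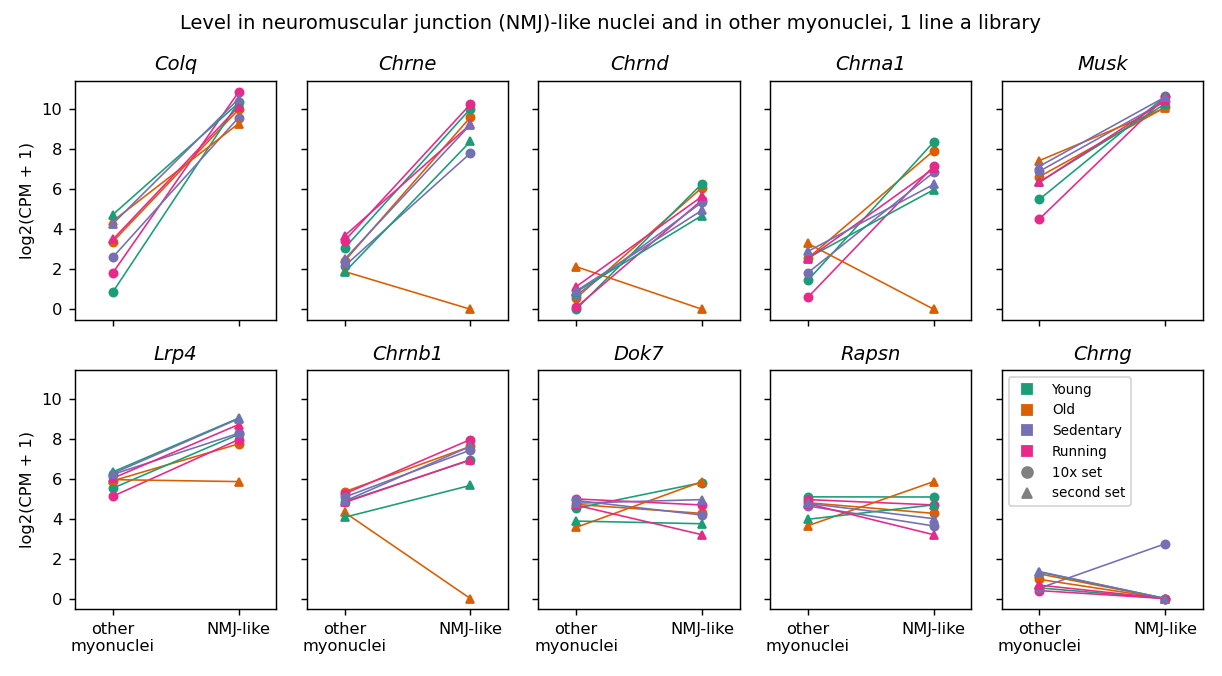
Level of each gene on a log2(CPM + 1) scale (y axis) in the other myonuclei and in the neuromuscular junction (NMJ)-like nuclei (x axis), with 1 line a library, colour for the group, circles for the 10x set and triangles for the second set. Lines rise for Colq and Musk in 8 of 8 libraries and for Chrne, Chrnd, Chrna1, Lrp4 and Chrnb1 in 7 of 8, with Old replicate 2 as the exception, and they run in both directions for Dok7 and Rapsn.

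The spread genes were set beside their levels in nuclei like fibro-adipogenic progenitors. In the 10x set these nuclei held 6.72 CPM of Dok7 and 6.40 CPM of Rapsn, below the lowest 10x library of the other myonuclei, at 21.9 and 23.7 CPM. For Chrnb1 they held 16.3 CPM, against 27.7 CPM in the lowest 10x library. For Musk they held 28.4 CPM, within the 10x range of the other myonuclei (21.9 to 118 CPM). Their Lrp4 level, given below, also lay within that range for Lrp4 (33.7 to 72.8 CPM). In the second set they held 10.6 CPM of Dok7, 12.7 CPM of Rapsn, 27.5 CPM of Chrnb1 and 82.6 CPM of Musk on 5, 6, 13 and 39 UMIs. For Rapsn, Chrnb1 and Musk these values lay within the range of the other myonuclei of that set, so their level there could not be told from background.

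Several of the genes were found in the same synaptic nuclei. At least 3 of the 10 were detected in 77.8% of the 176 neuromuscular junction-like nuclei of the 10x set and in 2.41% of its 26752 other myonuclei. In the second set the shares were 54.1% and 0.47%. Of the 119 synaptic nuclei of the 10x set with a Chrne UMI, 108 also held a Colq UMI, 104 a Musk UMI and 60 an Lrp4 UMI, while 12 held a Dok7 UMI.

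The gamma subunit gene followed another pattern. Chrng (chromosome 1, 87204657 to 87212694, plus strand) gave 124 UMIs in all, and 1 of them, from Sedentary replicate 1, lay in a neuromuscular junction-like nucleus. There Chrng made up 0.22% of the Chrng and Chrne UMIs of the 10x set (95% Wilson interval 0.04 to 1.22) and 0 of 141 in the second set (0 to 2.65). Over all nuclei it made up 6.79% (5.55 to 8.27) and 11.003% (7.98 to 14.98).

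Part of the Chrng UMIs lay in a small class of myonuclei marked by Runx1, Sh3d19, Ncam1 and Gadd45a, called Runx1+ nuclei here, 60 nuclei of the 10x set and 171 of the second set. They held 18 Chrng and 4 Chrne UMIs in the 10x set, a Chrng part of 81.8% (61.5 to 92.7), and 10 Chrng and 0 Chrne UMIs in the second set, a part of 100% (72.2 to 100). By library Chrng gave 10 UMIs in 25 Runx1+ nuclei of Old, 5 in 5 of Young, 2 in 5 of Running and 1 in 25 of Sedentary replicate 1, and 0 in 31, 5 in 33, 1 in 20 and 4 in 87 in replicate 2. Chrng was thus found in these nuclei in 7 of 8 libraries, and too few UMIs were counted to compare the groups. The class of the 10x set was separated from a myotendinous junction-like cluster of 599 nuclei after its Colq, Chrng and Chrna1 UMIs had been seen. Without that separation the whole cluster held 18 Chrng and 18 Chrne UMIs, a Chrng part of 50.0% (34.5 to 65.5), whereas the 171 nuclei of the second set formed a cluster of their own.

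**Figure D3:**
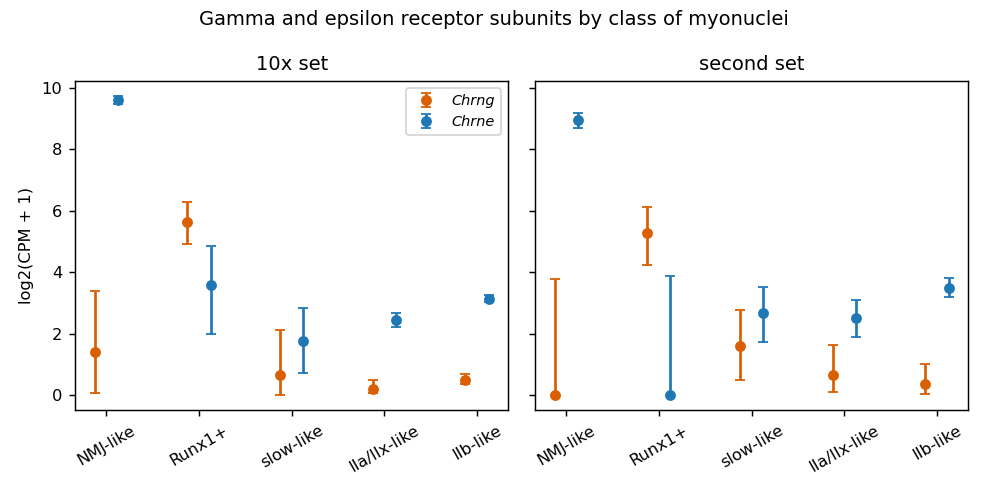
Level of Chrng and Chrne on a log2(CPM + 1) scale (y axis) by class of myonuclei (x axis) in the 10x set and the second set, where each point is the sum over the 4 libraries of a set and bars are 95% exact Poisson intervals of that count, which cover counting error only. Chrne lies far above Chrng in neuromuscular junction-like nuclei and Chrng above Chrne in Runx1+ nuclei, in both sets. The Runx1+ class of the 10x set was separated after its Chrng UMIs had been seen, and the cluster it came from held 18 Chrng and 18 Chrne UMIs.

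Other endplate genes were present in the Runx1+ nuclei too. Those of the 10x set held 424 CPM of Musk, 419 CPM of Colq, 169 CPM of Chrnb1, 122 CPM of Chrna1 and 29.9 CPM of Chrnd, against 10.9 CPM of Chrne. In the second set the levels were 362, 299, 131, 48.5 and 22.4 CPM, with no Chrne UMI. Colq was uneven within the class, since its 154 UMIs in the 10x set came from 15 of the 60 nuclei and 115 of them from Old replicate 1. Runx1+ nuclei count among the other myonuclei, which held 219 Colq UMIs in that library. The class is defined by genes that also stand in the list of denervation-response genes used below (Runx1, Ncam1, Gadd45a and Myog among them), so its name and that list are not independent.

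Outside the fibre, 4 of the genes were prominent in muscle stem cell-like nuclei, which were found in the 10x set only. Chrnb1 was at 164 CPM in Old, 157 CPM in Young, 167 CPM in Running and 122 CPM in Sedentary, and a UMI was found in 26.2% of these 1323 nuclei (95% Wilson interval 23.9 to 28.7), against 3.72% of nuclei like fibro-adipogenic progenitors (3.34 to 4.13). Musk was at 101, 137, 87.0 and 157 CPM and Rapsn at 58.3, 65.1, 62.4 and 52.3 CPM in the same order. Chrna1 was at 8.33, 36.6, 17.4 and 17.4 CPM on 62 UMIs. Chrne, in contrast, gave 5 UMIs in these nuclei, and its level of 1.85 CPM was near the 2.07 CPM of the progenitor-like class. Each group has 1 library here, so no difference between groups was tested.

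Lrp4 was also measured in nuclei outside the fibre. In the 10x set it was at 162 CPM in tenocyte-like nuclei, 136 CPM in Schwann cell-like nuclei, 64.7 CPM in pericyte-like nuclei and 40.7 CPM in nuclei like fibro-adipogenic progenitors, against 39.2 CPM in type IIb-like nuclei. The progenitor-like level lay within the 10x range of the other myonuclei (33.7 to 72.8 CPM), so these levels could not be told apart. Schwann cell-like nuclei, the glia of the nerve, held from 116 to 224 CPM over the 4 libraries. Tenocyte-like nuclei held 93.8 CPM in Old, 191 CPM in Young and 137 CPM in Running, and Sedentary had 7 such nuclei with no Lrp4 UMI.

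**Figure D4:**
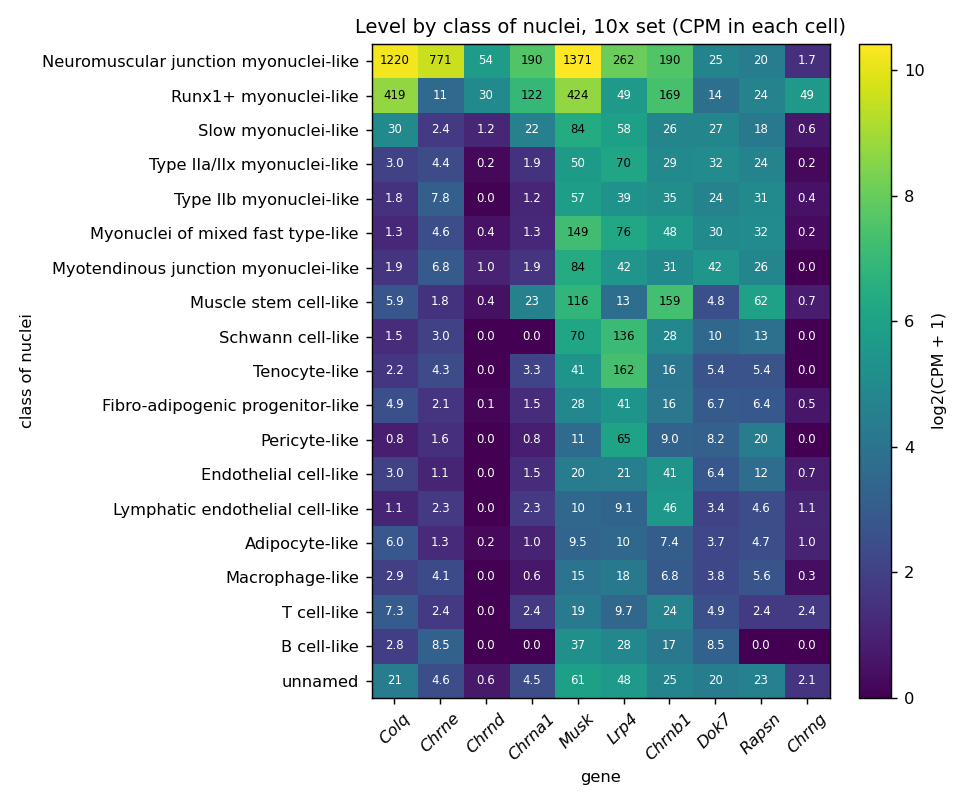
Level of the 10 genes (x axis) in each class of nuclei (y axis) of the 10x set, written in each field as CPM and coloured by log2(CPM + 1), with the 4 libraries summed. The top row of neuromuscular junction-like nuclei is high for Colq, Chrne, Musk, Lrp4, Chrna1 and Chrnb1. The Runx1+ row holds 49 CPM of Chrng, and the muscle stem cell-like row is also high for Chrnb1 and Musk. Lrp4 reaches 162 CPM in tenocyte-like nuclei, below its level in the top row.

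Genes with a pattern like that of the members were sought over 63 sums of a class within a library of the 10x set, from 18 classes, with Pearson's r of log2(CPM + 1). For Chrne the closest genes reported were Tafa4 (r = 0.77), Gm42456 (0.77), Ache (0.74), which is a marker used to recognise the class, and Zfp715 (0.73). For the sum of the 10 genes they were Musk (0.90) and Chrna1 (0.78), both members, and Ank3 (0.80), Gm11149 (0.76) and Cobl (0.73). The sums share libraries and depth, so these values are descriptions.

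Old and Young mice were compared to ask whether the genes change with age. UMIs were summed per library and class and tested with edgeR's quasi-likelihood test in 1 fit of the 4 groups and the library set, with Benjamini-Hochberg adjustment over all genes. No member was called in any of the 3 comparisons, 0 of 10 over all nuclei, 0 of 6 in neuromuscular junction-like nuclei and 0 of 10 in the other myonuclei. The share called over all genes was 0% in each, of 20309, 3834 and 18565 genes tested. At an unadjusted p under 0.05 there were 556, 197 and 687 genes, 0, 0 and 1 of them members, and DESeq2 called 0, 0 and 5 genes and no member. In synaptic nuclei Old replicate 2 had under 20 nuclei and was left out, so Old was 1 library there, taken to vary like the other groups, and Chrnd, Chrng, Dok7 and Rapsn had too few counts to be tested.

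In synaptic nuclei the fitted log2 fold changes of Old against Young were -0.01 (SE 0.57) for Chrna1, 0.92 (SE 0.61) for Chrnb1, 0.02 (SE 0.64) for Chrne, -0.32 (SE 0.50) for Colq, -0.50 (SE 0.48) for Lrp4 and -0.41 (SE 0.42) for Musk. Their edgeR adjusted p-values were from 0.99 to 1. The direction for Chrna1 and Chrne turned under other settings, and for Chrne the log2 fold change was -0.40 without Young replicate 2 and -0.61 with synaptic nuclei taken by a gate on markers. In the other myonuclei Musk was at 98.2 and 172 CPM in Old and at 44.1 and 81.0 CPM in Young (10x set first), so both Old libraries were above both Young libraries. Its log2 fold change was 0.89 (SE 0.37, unadjusted p 0.043, edgeR adjusted p 0.90), which did not pass the threshold. With a library left out the fold change ranged from 0.63 to 1.02. Median UMIs per nucleus were 2790 and 941 in Old and 3001 and 1689.5 in Young. In replicate 2, 1181 of 1398 other myonuclei of Old and 1847 of 3644 of Young were of mixed fast type. The part of depth and of this make-up in the Musk value was not tested. Chrnd, on 11 and 5 UMIs in Old and 0 and 6 in Young, had a fitted log2 fold change of 2.61 (SE 1.38, unadjusted p 0.096, edgeR adjusted p 0.90), which was 1.61 without Young replicate 1 and 6.02 without Young replicate 2. Of these UMIs 7 and 1 in Old and 0 and 1 in Young lay in Runx1+ nuclei, which count among the other myonuclei. Runx1+ nuclei numbered 25 and 31 in Old and 5 and 33 in Young.

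Running and Sedentary mice were compared to ask whether the genes change with training. Again no member was called, 0 of 10 over all nuclei, 0 of 6 in synaptic nuclei and 0 of 10 in the other myonuclei, where edgeR called 0% of all genes tested in each. At an unadjusted p under 0.05 there were 98, 156 and 196 genes, 1, 0 and 1 of them members (Musk in both cases), and DESeq2 called 0 genes in each. The comparisons of Old with Young and of Running with Sedentary share no library but share the estimate of spread.

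Musk had the smallest p-value of the members. In the other myonuclei it was at 21.9 and 80.8 CPM in Running and at 118 and 141 CPM in Sedentary (10x set first), so both Running libraries were below both Sedentary libraries. The log2 fold change was -1.58 (SE 0.38, unadjusted p 0.0034, edgeR adjusted p 0.9999), and over all nuclei it was -1.24 (SE 0.45, unadjusted p 0.025, edgeR adjusted p 0.9999). Running libraries moved these values most, to -0.98 and -0.69 without Running replicate 1 and to -2.29 and -1.95 without Running replicate 2. When only the 4 Running and Sedentary libraries were fitted, Musk passed over all nuclei, with a log2 fold change of -1.24 and an edgeR adjusted p of 0.025. It was then among 82 genes called, so it was not singled out. The same direction was measured in type IIb-like nuclei, at 19.5 and 84.7 CPM in Running and 114 and 128 CPM in Sedentary, and in type IIa/IIx-like nuclei, at 26.2 and 89.8 CPM against 83.7 and 190 CPM. Different clusters made up the type IIb-like class of the 10x set in these groups, since 4616 of its 5170 Running nuclei lay in a cluster led by Gm14505, Ppp1r3c and Mrln and 1150 of its 1395 Sedentary nuclei in one led by Ostn. Nuclei like fibro-adipogenic progenitors also differed in this direction, at 24.9 and 63.0 CPM of Musk in Running and 65.0 and 153 CPM in Sedentary, as did depth, with median UMIs per nucleus of 2805 and 1400.5 in Running and 1664 and 909 in Sedentary. Their part in the Musk value was not tested. In synaptic nuclei Musk was at 1546 and 1384 CPM in Running and at 1353 and 1569 CPM in Sedentary, where the groups overlapped, with a fitted log2 fold change of 0.05 (SE 0.33 and an edgeR adjusted p 0.996).

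The fold change of Chrne in the other myonuclei had the opposite sign and did not pass the threshold. It was at 9.69 and 11.7 CPM in Running and at 3.46 and 4.63 CPM in Sedentary, with no overlap, and its log2 fold change was 1.41 (SE 0.62, unadjusted p 0.053, edgeR adjusted p 0.9999). In synaptic nuclei it was at 1213 and 602 CPM in Running and at 222 and 598 CPM in Sedentary (10x set first), so that Sedentary replicate 1 lay below the other 3 libraries, which themselves spread from 598 to 1213 CPM. The log2 fold change there was 1.17 (SE 0.55, unadjusted p 0.054, edgeR adjusted p 0.996), and Sedentary libraries decided it. Without Sedentary replicate 1 it was -0.08. Without Sedentary replicate 2 it was 2.62, but Sedentary was then only its low library, whose spread was taken from the other groups. Among the other myonuclei of the 10x set, 5170 of 7682 in Running and 1395 of 6011 in Sedentary were type IIb-like. In the second set these were 2406 of 3908 and 2487 of 4026. The part of this make-up in the Chrne value of the other myonuclei was not tested.

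**Figure D5:**
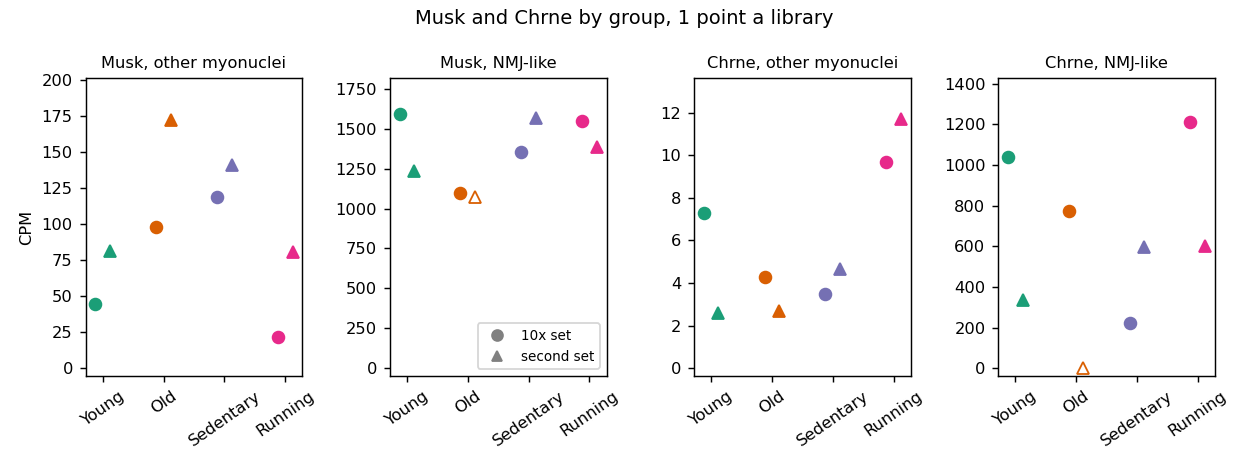
Level in CPM (y axis, starting at 0) of Musk and Chrne in the other myonuclei and in neuromuscular junction (NMJ)-like nuclei by group (x axis), with 1 point a library, circles for the 10x set and triangles for the second set, where the open triangle is Old replicate 2 with under 20 such nuclei. In the other myonuclei both Running points lie below both Sedentary points for Musk, at 21.9 and 80.8 against 118 and 141 CPM, and above them for Chrne, at 9.69 and 11.7 against 3.46 and 4.63 CPM.

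None of the remaining members tested in synaptic nuclei passed the threshold for Running against Sedentary. The log2 fold changes were 0.64 (SE 0.56) for Chrna1, 0.08 (SE 0.46) for Chrnb1, 0.51 (SE 0.40) for Colq and -0.26 (SE 0.35) for Lrp4, with edgeR adjusted p-values of 0.996. Lrp4 in the other myonuclei was at 33.7 and 63.8 CPM in Running and at 72.8 and 75.2 CPM in Sedentary, with a log2 fold change of -0.68 (SE 0.31, unadjusted p 0.059, edgeR adjusted p 0.9999). Over the 10 members the median log2 fold change in the other myonuclei was -0.79 in Running against Sedentary (3 genes positive, 7 negative) and 0.29 in Old against Young (6 positive, 4 negative), beside -0.02 and 0.10 over all genes tested. Chrnd and Chrng, with 104 and 124 UMIs in all, enter these medians like the other members.

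The 5 lists of genes that work with the members were followed in the same fits, and 0 of their genes were called in any comparison. In neuromuscular junction-like nuclei, 16 of 21 genes of agrin and MuSK signalling, 6 of 11 of synaptic transcription and neuregulin, 16 of 18 of the postsynaptic cytoskeleton and dystrophin complex, 10 of 15 of the synaptic cleft and basal lamina and 5 of 12 of the denervation response were tested. The smallest p-values there for Old against Young belonged to Sorbs2 (log2 fold change 2.40, SE 0.58), Nes, a filament protein of the endplate (2.52, SE 0.65), and Erbb4, a neuregulin receptor (-1.89, SE 0.68), with edgeR adjusted p-values of 0.43, 0.47 and 0.80. For Running against Sedentary Crkl, an adaptor that binds Dok7 (1.92, SE 0.79), and Lamb2, a laminin of the synaptic cleft (1.09, SE 0.52), were among them, both with an edgeR adjusted p of 0.996.

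In the other myonuclei the denervation response, with 12 of 12 genes tested, had a median log2 fold change of 0.38 in Old against Young (7 genes positive, 5 negative) and of -0.37 in Running against Sedentary (4 positive, 8 negative), beside 0.10 and -0.02 over all genes tested. Its members with the smallest p-values were Runx1, a transcription factor (1.33, SE 0.39, edgeR adjusted p 0.90 in Old against Young, and -0.90, SE 0.39, edgeR adjusted p 0.9999 in Running against Sedentary), and Ncam1, an adhesion molecule (-1.88, SE 0.63, edgeR adjusted p 0.9999 in Running against Sedentary). The other myonuclei include Runx1+ nuclei, which held 837 CPM of Runx1 and 1460 CPM of Ncam1 in the 10x set. Each Running library had fewer of them (5 and 20, 10x set first) than the Sedentary library of the same set (25 and 87). Their part in the values of this list was not tested. Agrin and MuSK signalling had medians of -0.15 and 0.01, synaptic transcription and neuregulin 0.86 and -0.08, the postsynaptic cytoskeleton -0.06 and -0.11, and the cleft and basal lamina 0.53 and 0.45. From these lists the rule also named Nid1 (1.53, SE 0.44) and Bgn (1.70, SE 0.55), both matrix proteins, for Old against Young, and Sntb1, a syntrophin of the dystrophin complex (-1.37, SE 0.48), for Running against Sedentary. Their edgeR adjusted p-values were 0.90, 0.90 and 0.9999. Over all nuclei it named Dtna (-1.02, SE 0.40), Hdac4 (-0.83, SE 0.34) and Scn4a (-0.88, SE 0.36) for Old against Young, with an edgeR adjusted p of 0.69, and Nid2 (1.47, SE 0.65), Sntb1 (-0.68, SE 0.39) and Ncam1 (-0.65, SE 0.38) for Running against Sedentary, with an edgeR adjusted p of 0.9999.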

How the data were processed

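Nuclei of gastrocnemius were sequenced in 8 libraries, 2 for each of Old, Young, Running and Sedentary. The values the authors deposited are raw UMI counts for each gene in each nucleus, 1 filtered matrix a library, made on mm10 with Cell Ranger 6.1.2 for the 10x set and, per the methods of the study, with PISA for the DNBelab second set. Whether intronic reads or strand were used is not given in the sources used here. The submitters' processing notes also name Seurat 4.1.1. Ages, training and the second platform are from the methods of the study.

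Symbols present in all 8 files (21207) were used. The filter of the study, with limits of 200 and 6000 genes and of 6% mitochondrial UMIs per nucleus, kept 64803 of 65280 nuclei. Doublets stayed in. Each library set was clustered without the 10 genes and without integration (scanpy 1.11.5, leidenalg 0.10.2, Python 3.11.15, 2000 variable genes, 30 principal components, 20 neighbours, resolution 1). Names came from 18 lists of markers, of which at least 3 had to be detected, and stand for likeness to a class. The limits for naming, a class of mixed fast myonuclei and the separation of Runx1+ nuclei from the myotendinous junction-like cluster were set after the clusters and the members' UMIs in them had been seen. The separation changed neither the neuromuscular junction-like nuclei nor the other myonuclei, which are all remaining fibre classes together. The tests excluded 110 mitochondrial and ribosomal protein genes.

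UMI sums per library and class with at least 20 nuclei were tested with edgeR 4.0.16 (R 4.3.3, quasi-likelihood F-test, TMM, filterByExpr, Benjamini-Hochberg, threshold 0.05), with DESeq2 1.42.0 as an alternative. Replicate numbers follow the order of deposition and pair no libraries, and p-values measure only the spread between these libraries. CPM and shares are descriptions with 95% Wilson or exact Poisson intervals. The fit was tested on simulated data with known changes. The precision of a member follows its UMIs, from 104 for Chrnd to 11455 for Musk.

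The members, lists and classes were chosen with earlier results of these data known. All 10 members are named in every result. Fitted changes are printed for synaptic nuclei and, elsewhere, at an unadjusted p under 0.1, a limit set after the values were seen. From the pathway lists called genes were to be named, and where none was called the 3 with the smallest p per fit, and for likeness the 5 closest genes with at least 100 UMIs. Some genes that these rules name are not reported here. Positions are from GENCODE vM21 on GRCm38. Alternatives were other scaling, DESeq2, no library set term, no filter on low counts, only the libraries compared, other ways to take synaptic nuclei, doublets left out, thinning and each library left out.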

Additional observations from a re-analysis of the deposited data

Results flagged for a closer look

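The difference of Running minus Sedentary in Chrna1 had opposite signs in synaptic nuclei and in the other myonuclei, in both library sets. In neuromuscular junction-like nuclei Running minus Sedentary was 27.95 CPM in the first library set (10x) and 55.53 CPM in the second. In the other myonuclei it was -2.024 CPM and -1.664 CPM. Neither passed the threshold, with log2 fold changes of 0.64 (SE 0.56, edgeR adjusted p 0.996) in synaptic nuclei and -1.21 (SE 0.69, edgeR adjusted p 0.9999) in the other myonuclei, and the difference between the 2 kinds of nuclei was not tested. The synaptic values rest on 23 and 16 UMIs in Running and 20 and 5 in Sedentary, and their counting intervals overlapped in each set (89.8 to 213 against 69.5 to 176 CPM in the 10x libraries). Those of the other myonuclei rest on 16 and 32 UMIs in Running and 41 and 29 in Sedentary. Among these nuclei, 7 and 104 in Running and 388 and 70 in Sedentary were slow-like. Runx1+ nuclei were 5 and 20 in Running and 25 and 87 in Sedentary. Both classes held more Chrna1 than type IIb-like nuclei, and the part of this make-up was not tested.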

How the results depend on the processing

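The medians of the members' UMI shares in neuromuscular junction-like nuclei moved by less than the spread between libraries in 143 of 144 alternatives, and the exception was Dok7, at 1.39% with a gate on at least 3 markers. Ratios of synaptic to other myonuclei were lower with that gate for some members, with a median over libraries of 68.3 in place of 126.9 for Chrne and of 3.87 in place of 6.51 for Lrp4, and for Musk a highest value of 38.1 in place of 70.7. With it the synaptic level of Chrna1, Chrne and Lrp4 was the higher in 8 libraries in place of 7. Counts of called genes went from 0 to 4 (Old against Young) and 82 (Running against Sedentary) over all nuclei and to 1 in synaptic nuclei (Running against Sedentary) and 1 in the other myonuclei (Old against Young) when only the libraries compared were fitted. They went to 7 and 11 in synaptic nuclei without the filter on low counts, and to 5 in the other myonuclei with DESeq2 (Old against Young). With each library left out they ranged, for Old against Young, from 0 to 8 over all nuclei, 1 to 55 in synaptic nuclei and 0 to 2 in the other myonuclei, and for Running against Sedentary from 0 to 418, 0 to 96 and 0 to 5, with 418 and 96 reached without Sedentary replicate 2.

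Of 18 fold changes of members, 12 kept their direction in all alternatives. In synaptic nuclei, for Old against Young, Chrna1 was at 0.055 with DESeq2, 0.16 without the filter and 0.30 without the library set term (-0.41 to 1.63 with a library left out), and Chrne at -0.61 with the marker gate (-0.40 to 1.26). For Running against Sedentary, Chrnb1 was at -0.035 with DESeq2 and -0.070 with the gate (-0.66 to 0.60) and Musk at -0.32 with the gate (-0.17 to 0.28), while with a library left out Chrne ranged from -0.077 to 2.62 and Colq from -0.14 to 1.16. The cause was not tested. In 2 of 227 alternatives a member's fold change kept its direction and passed the threshold. Musk over all nuclei did so with only the libraries compared (Running against Sedentary), among the other genes called there. The 2.62 of Chrne in synaptic nuclei was reached without Sedentary replicate 2, where Sedentary was 1 library, assumed to vary like the other groups. Without the separation chosen after seeing the data, the Chrng part in the 10x cluster was 50.0%. The comparison of Old with Young in synaptic nuclei was not run without Old replicate 1 or with only its 2 groups, since too few Old libraries were left. The fit used the library set as a block, with 1 library of each group in each set. No paired analysis was possible because the labels give no replicate numbers beyond that. Depth limits Chrnd and Chrng, with 104 and 124 UMIs.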
